A study of Mus musculus with 20 samples.

Results

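The regions described here are the 1834 broad peaks outside the promoter class, out of 125343 accessible regions called in mouse blood stem and progenitor cells. A peak was taken where the deposited count table gave it a width of 1500 bp or more. The deposited annotation also had to place it outside the promoter class, and no level was used as a criterion. Widths come from peaks called on the accessibility signal, so width is not independent of level. A peak may reach this width through the genotype where its signal is strong. The members were 1500 to 4181 bp wide, with a median of 1695.5 bp. ATAC-seq, in which a transposase cuts and tags open chromatin, was applied to LSK cells (Lin-cKit+Sca1+), the bone marrow fraction that holds the blood stem cells and multipotent progenitors. Mice were of strain C57Bl/6J and 3 to 4 months old, and each of the 5 genotypes was represented by 4 libraries, every one a pool of 2 mice. Controls, called WT below, were +/+;Vav-Cre. Among the mutants, Idh1 R132H stands below for Idh1LSL-R132H/+;Vav-Cre, Idh2 R140Q for Idh2LSL-R140Q/+;Vav-Cre and Idh2 R172K for Idh2LSL-R172K/+;Vav-Cre, each with 1 mutant allele that Cre switches on. Vav-Cre is active throughout the blood lineage and not only at the LSK stage. The last genotype, Tet2-/- (Tet2 knockout below), has a label that names no Cre, so a difference in the Cre transgene and the loss of Tet2 cannot be told apart. A pool of mice gives no value for a single animal.

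Wide open regions away from promoters are often clusters of enhancers, the elements at which transcription factors gather and from which distant genes are activated. Mutant IDH1 and IDH2 turn 2-oxoglutarate into 2-hydroxyglutarate, a metabolite that inhibits dioxygenases such as the TET enzymes. TET2 oxidises methylated cytosine, a first step in removing DNA methylation, and enhancers are among the sites where it is known to act. A level below is a peak's count per 1e6 counts in peaks (CPM) after TMM scaling, given as mean ± SD over 4 libraries. A peak is called raised or lowered where its p in the quasi-likelihood test of edgeR, Benjamini-Hochberg adjusted across the 123908 peaks tested, was under 0.05. All 1834 members passed the count filter, and changes are log2 fold changes as fitted.

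Whether the members act as enhancers was not measured, and many of them reach over a gene start. The authors' annotation placed 832 members (45.4%) in introns, 460 (25.1%) in exons, 437 (23.8%) between genes and 105 (5.73%) at transcript ends. Yet 891 members (48.6%) contained a transcription start, by the authors' distance to the nearest start or by a RefSeq start. Among exon members this share was 83.3%, among transcript-end members 54.3%, among intron members 49.0% and among intergenic members 9.84%. A wide peak can reach over a start that its centre does not touch. The other 943 members (51.4%) held no annotated start and are called distal in what follows, for that alone. Centres lay a median of 5346.5 bp from the nearest start, with 1125 under 10 kb away and 48 over 100 kb away.

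**Figure D1:**
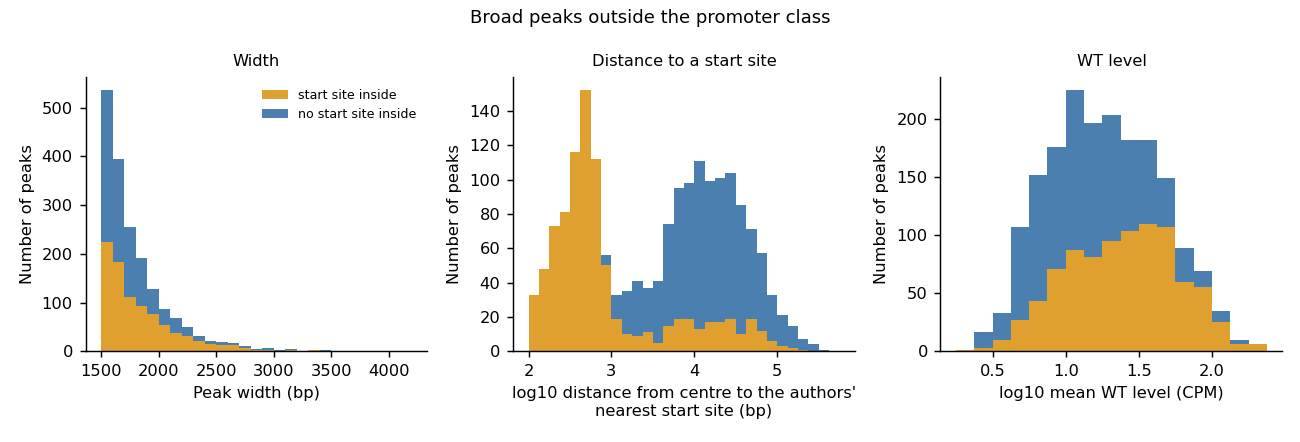
Histograms of the 1834 members by width in bp, by log10 distance from the centre to the authors' nearest start site in bp and by log10 mean WT level in CPM, with members that hold a start site in orange and those that hold none in blue. Members with a start form the left hump of the distance plot, and their WT levels lie higher (median 25.9 CPM against 13.5).

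In WT the members ranged from 2.31 to 218 CPM, with a median of 17.9, against 2.19 in the narrower non-promoter peaks. Per kb of peak the median was 10.2 CPM, against 4.55 in the 107869 narrower non-promoter peaks and 20.6 in the 1537 promoter-class peaks of at least the same width. Together the members took 5.021% to 5.315% of the counts of a library. A gene name marks the protein-coding gene that holds the peak's centre (1343 members) or else the gene with the nearest boundary, not a regulated gene. The members carried 1652 gene names, and 146 genes had more than 1, with 5 each at Foxp1, a transcription factor needed for B cell development, and Trappc9, a vesicle-transport factor. At the width limit the 6 members of 1500 bp held 3.82 to 50.3 CPM in WT (median 10.8), and the 6 non-promoter peaks of 1499 bp just outside held 6.33 to 31.6 CPM (median 13.1).

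Because a start lies inside so many members, the sequence upstream of a start could be read for some of them. The first 3 of the following 6 start-site windows lie in members raised in both Idh2 R172K and Tet2 knockout, Rcn3 in a member lowered in Idh2 R172K, and Jun and Kit in members of high WT level. Each run is the 250 bases before the start of the RefSeq gene (GRCm38.p6, the assembly that mm10 represents), written 5′ to 3′ on the gene's strand, with capitals marking CpG, the dinucleotide that carries DNA methylation.
Fam181b (chr7:93079629-93079878, + strand): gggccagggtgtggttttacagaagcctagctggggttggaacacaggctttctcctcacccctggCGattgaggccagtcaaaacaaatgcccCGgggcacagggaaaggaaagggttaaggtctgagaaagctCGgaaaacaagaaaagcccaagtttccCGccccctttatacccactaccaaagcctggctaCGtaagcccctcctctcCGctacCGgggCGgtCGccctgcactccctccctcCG
AI593442 (chr9:52679438-52679687, - strand): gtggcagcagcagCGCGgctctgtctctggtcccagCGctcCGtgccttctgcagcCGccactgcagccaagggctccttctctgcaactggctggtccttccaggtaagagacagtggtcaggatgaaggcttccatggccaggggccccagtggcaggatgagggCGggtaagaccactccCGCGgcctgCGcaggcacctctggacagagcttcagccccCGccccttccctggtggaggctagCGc
Marcksl1 (chr4:129513331-129513580, + strand): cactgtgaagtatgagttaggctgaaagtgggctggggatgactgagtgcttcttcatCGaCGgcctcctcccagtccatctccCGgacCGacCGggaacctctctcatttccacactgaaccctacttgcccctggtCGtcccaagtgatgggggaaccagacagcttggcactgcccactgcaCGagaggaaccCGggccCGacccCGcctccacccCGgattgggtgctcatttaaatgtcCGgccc
Rcn3 (chr7:45092214-45092463, - strand): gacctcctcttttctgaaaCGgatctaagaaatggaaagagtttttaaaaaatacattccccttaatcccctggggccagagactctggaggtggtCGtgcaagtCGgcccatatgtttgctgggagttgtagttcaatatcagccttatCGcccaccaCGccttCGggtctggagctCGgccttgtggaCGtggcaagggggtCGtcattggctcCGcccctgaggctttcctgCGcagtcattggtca
Jun (chr4:95052223-95052472, - strand): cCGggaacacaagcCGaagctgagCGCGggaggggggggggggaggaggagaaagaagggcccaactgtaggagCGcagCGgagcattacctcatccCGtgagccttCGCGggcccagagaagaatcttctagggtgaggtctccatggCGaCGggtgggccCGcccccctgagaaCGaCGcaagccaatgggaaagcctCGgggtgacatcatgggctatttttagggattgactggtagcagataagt
Kit (chr5:75574741-75574990, + strand): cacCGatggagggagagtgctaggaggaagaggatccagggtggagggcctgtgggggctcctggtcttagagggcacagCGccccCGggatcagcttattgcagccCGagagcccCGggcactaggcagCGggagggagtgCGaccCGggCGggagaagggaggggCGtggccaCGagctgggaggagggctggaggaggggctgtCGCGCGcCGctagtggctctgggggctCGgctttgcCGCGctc
The 250 bases held 10 CpGs at Fam181b, 11 at AI593442, 12 at Marcksl1, 11 at Rcn3, 15 at Jun and 18 at Kit. Over the 603 RefSeq windows of 300 bases that fell in members, the median was 24 CpGs a window, against 27 in the 1134 windows of broad promoter-class peaks and 7 in all 32851 RefSeq windows. Windows in members raised in Idh2 R172K had a median of 23.5 CpGs (280 windows), those in lowered members 19.5 (56) and those in members not called 27 (267). The median window of raised, lowered and uncalled members alike held more CpGs than the median RefSeq window. No sequence is given for the distal members, since a mm10 genome was not used here.

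Library totals ranged from 10502052 to 27890340 counts in peaks. Of the markers of LSK cells, Kit (64.8 CPM in WT), Flt3 (77.7), Cd34 (24.9), Gata2 (37.8), Mecom (10.2) and Hlf (27.9) had peaks at their starts, and Ly6a, which encodes Sca1, had none. Peaks were absent at the starts of all 4 T cell and all 4 erythroid markers, of Cd79a, and of 4 of 5 stroma and endothelium markers, while Pax5 held 1.32 CPM, Ebf1 4.33 and Col1a2 6.65. Among neutrophil and monocyte markers the Ctsg start held 10.7 CPM in WT, 5.02 in Idh2 R172K and 6.36 in Tet2 knockout, Elane 3.88, 2.56 and 3.0, S100a8 1.47, 0.714 and 0.987, and Lyz2 8.3, 8.43 and 7.73, while S100a9 had no peak. The first 3 of these 4 had lower means in both mutants. The part of other cells in the results below was not tested. The Xist gene, active on the silenced X chromosome of female cells, split the libraries into a set at 3.864 to 4.928 CPM and a set at 33.84 to 40.1 CPM; replicates 2 and 4 of WT and of each Idh genotype and replicates 3 and 4 of Tet2 knockout were in the high set. The sex of the mice is not in the labels.

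Most of the strongest members in WT held a start. The Jun peak at chr4:95050011-95053507, over the only exon of an immediate early AP-1 factor, held 241, 202, 191 and 237 CPM in WT, 240, 259, 251 and 275 in Idh2 R172K, and 239, 262, 217 and 214 in Tet2 knockout. Jund, another AP-1 subunit, followed at 211 ± 20.6 CPM in WT (SD, n = 4), and Crlf2, a subunit of the TSLP receptor, at 198 ± 12.0. Crlf2 was not called in any mutant, with 199 ± 8.95 CPM in Idh2 R172K (log2 change of 0.01, adjusted p = 0.944) and 201 ± 20.9 in Tet2 knockout (0.02, adjusted p = 0.922). Its WT values of 181 to 206 CPM overlapped those of both mutants. Of the 10 strongest members, 8 held a start. The exceptions were Impact, an inhibitor of the kinase GCN2, at 144 ± 7.17 CPM, and Sfi1, a centrosome protein, at 148 ± 28.5 CPM. Sfi1 has near-identical copies elsewhere in the mouse genome, so its reads may be split between copies and its values are uncertain. The widest member, at 4181 bp, lay in the first intron of Lzts2, a leucine zipper protein, and the fifth widest, in the first intron of Kdm6b, a histone H3K27 demethylase, held 126 ± 7.92 CPM in WT.

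Idh2 R172K changed more of the members than the other genotypes: 730 were raised (39.8%) and 346 lowered (18.9%), and 758 were not called. Over all tested peaks 53.0% were called in this comparison, 25.1% raised and 27.9% lowered. The median log2 fold change was 0.12 over the members and 0.006 over all tested peaks. Changes beyond 2-fold went mostly down, with 64 lowered (3.49%) and 14 raised members (0.763%). The same lean held over all tested peaks, where such changes were more frequent (13.2% lowered and 3.63% raised). In 555 of the 730 raised and 286 of the 346 lowered members every Idh2 R172K library lay beyond every WT library. A further 23 members lay above and 9 below WT in this way without a call. Such separation was not counted over all tested peaks, so these counts have no background. All 4 Idh2 R172K libraries had a median log2 ratio to the WT mean above 0 over the members (0.147, 0.078, 0.118 and 0.08), above each of the 12 libraries of the other mutants (-0.01 to 0.044).

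The balance of raised and lowered members depended on the scaling. With cyclic loess, which removes trends with peak strength, 454 members were raised and 499 lowered, with a median of 0.013. Raised members thus fell from 67.8% to 47.6% of those called. Over all tested peaks that share was 47.3% in the main fit and 50.7% under cyclic loess (median 0.028). Under cyclic loess the members thus no longer had a larger share of rises, or a higher median, than all tested peaks. With library size alone as the scale, 503 members were raised and 443 lowered (53.2% raised) with a median of 0.043. There 37.7% of the called among all tested peaks were raised, with a median of -0.069. Of the 730 raised members 445 kept their call under cyclic loess and 503 under library size, and of the 346 lowered members 336 and 346 did. Of the small rises of strong peaks below, those of Jun and Jund were lost under cyclic loess only among the scalings, and that of Kit under cyclic loess and library size, while large changes such as those of the next paragraphs were called under every scaling run.

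**Figure D2:**
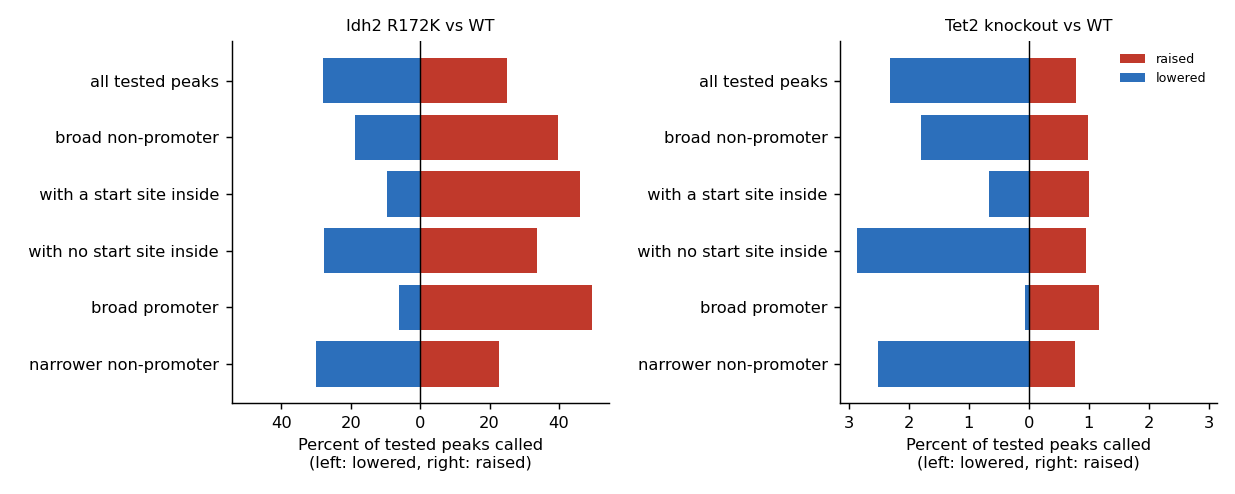
Bars give the percentage of tested peaks raised (red, to the right) and lowered (blue, to the left) against WT at an adjusted p under 0.05, in Idh2 R172K and in Tet2 knockout, for all tested peaks, the members, their 2 subsets, broad promoter-class peaks and narrower non-promoter peaks. In Idh2 R172K the members lie between the broad promoter-class peaks (49.4% raised, 6.05% lowered) and the narrower non-promoter peaks (22.7% and 30.0%).

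Among the raised members the first by p was a peak in the first intron of Sema4b, a semaphorin that signals at the cell surface, at chr7:80191476-80193093. It held 64.7, 60.7, 59.7 and 58.8 CPM in WT and 124, 115, 119 and 119 in Idh2 R172K, a log2 fold change of 0.97 (SE 0.06, adjusted p = 6.28e-17). The Idh2 R172K libraries stood far above the other 16, which lay between 58.8 and 72.1 CPM. The Sema4b peak lies near Idh2, the gene altered in this genotype, on chromosome 7. An effect of DNA linked to the altered allele was not tested. A peak 7309 bp from Mcur1, a regulator of mitochondrial calcium uptake, at chr13:43530316-43531878 went from 19.1, 16.5, 17.6 and 16.7 CPM to 40.9, 33.4, 39.0 and 36.8 (1.11, SE 0.08, adjusted p = 1.4e-15). The other 3 genotypes held 16.8 ± 1.95 to 19.2 ± 1.69 CPM there, near the WT mean. A member 21196 bp from Cbfa2t3, which encodes the corepressor ETO2 of blood progenitors, at chr8:122719500-122721556 rose from 52.0, 44.6, 44.4 and 48.0 CPM to 79.6, 71.6, 75.2 and 80.1 (0.70, SE 0.06, adjusted p = 4.66e-13). Again no WT, Idh1 R132H, Idh2 R140Q or Tet2 knockout library reached the lowest Idh2 R172K value.

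The other raised members named by p, apart from Fam181b and AI593442 described with Tet2 knockout below, covered both kinds of region. An intronic peak of Gse1 at chr8:120334765-120336389, 105041 bp from the nearest start, rose from 33.8 ± 3.44 to 61.5 ± 5.12 CPM (log2 change of 0.87, adjusted p = 2.74e-14). The member at Rtkn contained its start and rose from 15.9 ± 0.999 to 32.0 ± 3.09 CPM (1.02), and that at Tspan4, a tetraspanin, from 28.9 ± 1.2 to 49.2 ± 3.7 (0.77). Peaks near Pcdh7, a protocadherin (1.05), near Gpcpd1 (1.05) and in Sbno2 (0.78) rose as well, each with all Idh2 R172K libraries above all WT libraries. The Sbno2 peak held 28.4 ± 2.59 CPM in Tet2 knockout against 28.3 ± 1.86 in WT (SD, n = 4 each).

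The lowered members reached larger fold changes. In intron 6 of Fstl4, a follistatin-like secreted protein, the peak at chr11:53096771-53098316 held 17.2, 16.8, 15.6 and 15.1 CPM in WT and 2.5, 3.21, 2.4 and 2.03 in Idh2 R172K (log2 change of -2.72, SE 0.11, adjusted p = 2.07e-23). The other 3 genotypes stayed near WT, between 13.7 and 16.8 CPM in their 12 libraries. An intronic peak of Pepd, a peptidase that splits dipeptides ending in proline, at chr7:34984419-34986041 fell from 21.6, 21.5, 21.0 and 21.7 CPM to 6.27, 5.36, 6.03 and 5.07 (-1.9, SE 0.08, adjusted p = 9.35e-23). This peak lies at -41245 bp from the nearest start in the authors' annotation, where negative values are upstream, and its 4 WT libraries spanned less than 1 CPM.

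The member over the start of Osm, which encodes the cytokine oncostatin M of the interleukin-6 family, at chr11:4235800-4237963 held 50.3, 47.2, 40.7 and 45.2 CPM in WT and 19, 18.7, 17.0 and 14.9 in Idh2 R172K (log2 change of -1.4, SE 0.08, adjusted p = 4.12e-19). Idh1 R132H (47.4 ± 1.53 CPM) and Idh2 R140Q (44.3 ± 3.38) were near WT, and Tet2 knockout, with 37.3, 43.1, 38.5 and 37.0 CPM, was lowered too at 39.0 ± 2.8 (-0.24, SE 0.07, adjusted p = 0.0416), with 1 library inside the WT range. Another start-site member, of the calcium-binding protein Rcn3, whose upstream sequence is printed above, fell from 25.5 ± 1.37 to 9.78 ± 0.789 CPM (-1.37, adjusted p = 2.75e-18). Intronic peaks of 2 neurotransmitter receptor subunits fell too, Grik4 from 14.3 ± 0.948 to 3.58 ± 0.404 CPM (-2.02) and Gabbr2 from 19.1 ± 1.26 to 5.83 ± 0.359 (-1.7). Of the distal members, those near Tmpo, a nuclear envelope protein (-1.3), in Dazap1, an RNA-binding protein (-1.49), and in Alg14, an enzyme of protein glycosylation (-1.79), completed the first 10 with Foxq1, given below. Sfi1, with its uncertain copies, fell from 148 ± 28.5 to 56.0 ± 9.89 CPM (-1.41, adjusted p = 8.79e-06).

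**Figure D3:**
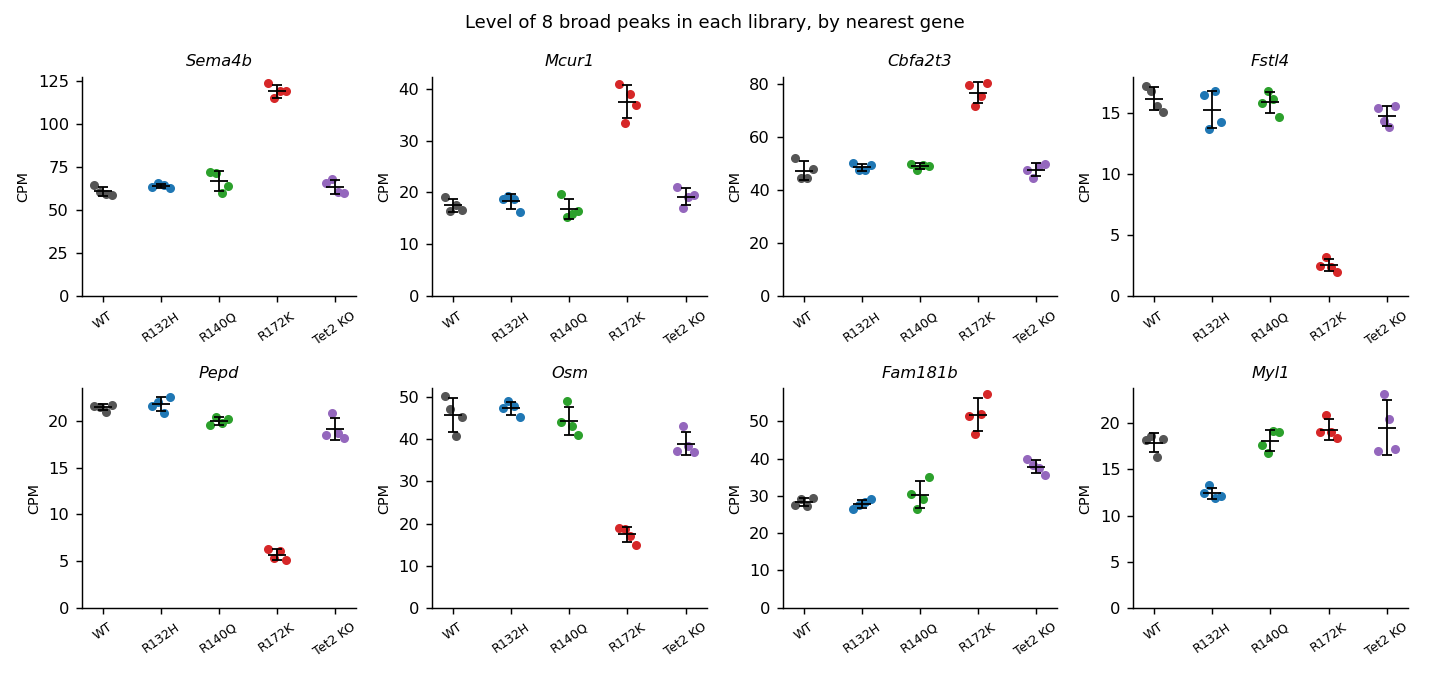
Level in CPM (linear axis from 0) of 8 members in each of the 20 libraries, as points by genotype, with a bar for the mean and whiskers for 1 SD (n = 4). Sema4b, Mcur1 and Cbfa2t3 stand high and Fstl4, Pepd and Osm lowest in Idh2 R172K, with Osm also lower in Tet2 knockout (39.0 against 45.8 CPM), Fam181b is higher in both Idh2 R172K and Tet2 knockout, and Myl1 is low in Idh1 R132H.

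Whether a member held a start went with the direction in Idh2 R172K. Of the 891 members with a start 411 were raised (46.1%) and 85 lowered (9.54%), with a median log2 fold change of 0.15. Of the 943 without one 319 were raised (33.8%) and 261 lowered (27.7%), with a median of 0.066. Under cyclic loess the counts were 218 raised and 184 lowered with a start, and 236 and 315 without. By class, exon members had 216 raised and 45 lowered, intron members 324 and 176, intergenic members 147 and 112 and transcript-end members 43 and 13. Members of 2000 bp or more had 159 raised and 40 lowered of 331, against 730 and 346 of 1834 at all widths. Of the 64 members lowered by more than 2-fold, 51 held no start. Narrower non-promoter peaks split the same way, with 39.1% raised and 17.2% lowered where a start lay inside, and 22.0% and 30.5% elsewhere. The split is thus not particular to the members. The difference between these subsets was not tested.

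Level in WT also went with the direction, and from 5 CPM up the contrast with narrower peaks was smaller at a matched level. Under 5 CPM most of the contrast in raised peaks stayed. There the members had 33.7% raised and 24.8% lowered of 101, and narrower non-promoter peaks 20.1% and 29.9%. Members at 50 CPM or more in WT had 124 raised (45.1%) and 13 lowered (4.73%) of 275, and narrower non-promoter peaks of that level 47.1% and 3.07%. At 5 to 10 CPM the members had 100 raised (26.0%) and 113 lowered (29.4%) of 385, and the narrower peaks 25.1% and 34.5%. At 10 to 20 CPM the members had 39.3% raised and 21.7% lowered, against 31.2% and 30.7%. Distal members alone, at 10 to 20 CPM, had 32.9% raised and 28.6% lowered. The WT level enters the fold change too, so these shares describe the peaks and test nothing.

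**Figure D4:**
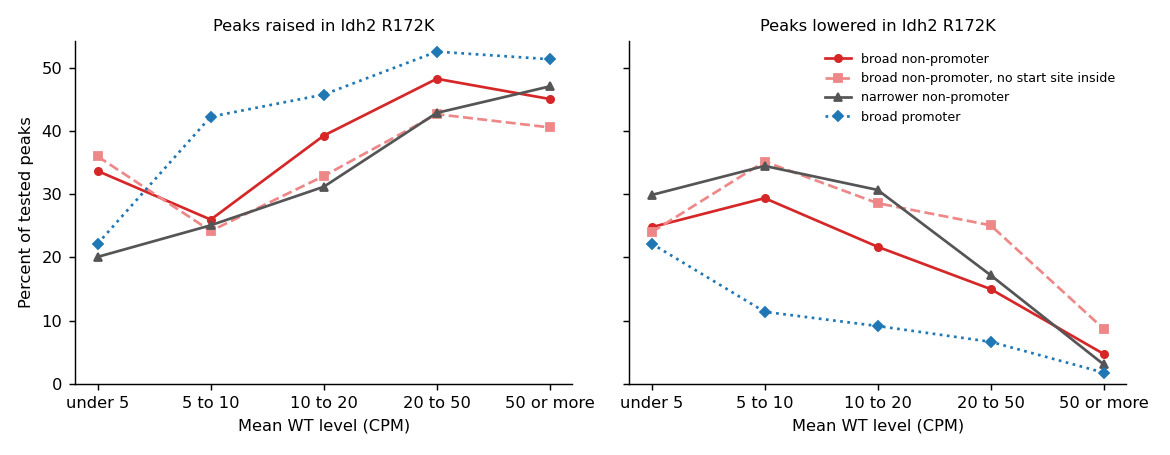
Percentage of tested peaks raised (left) and lowered (right) in Idh2 R172K against WT, by mean WT level in CPM, for the members, the members with no start inside, narrower non-promoter peaks and broad promoter-class peaks. The raised share of the members goes from 26.0% at 5 to 10 CPM to 48.3% at 20 to 50 CPM, and the distal members follow the narrower peaks within a few percentage points from 5 to 50 CPM on the left. On the right, at 20 to 50 CPM, the distal members stand above the narrower peaks (25.1% against 17.2% lowered).

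For the gene lists below, the shares to read each count against in Idh2 R172K are those of all tested peaks (25.1% raised, 27.9% lowered, 53.0% called) and of all members (39.8%, 18.9% and 58.7%). Each list has few members, so a count near these shares says nothing of the list. Of the stem cell transcription factors, 13 of 24 genes had a member, 17 members in all, of which 6 rose and 4 fell in Idh2 R172K (median log2 fold change 0.106). A peak 251512 bp from Mycn, a MYC family factor that stem cells use, held 7.09, 5.81, 8.02 and 6.81 CPM in WT and 1.81, 1.66, 2.4 and 2.37 in Idh2 R172K (-1.71, SE 0.15, adjusted p = 5.41e-12). The peak in intron 3 of Prdm16, a regulator of stem cell maintenance, fell from 7.05 ± 1.09 to 2.38 ± 0.623 CPM (-1.5, adjusted p = 8.04e-11). In both of these members no Idh2 R172K library reached the lowest WT value. A member 76353 bp from Hmga2, a chromatin protein of fetal stem cells, went the other way, from 9.57 ± 0.975 to 16.1 ± 0.634 CPM (0.74, adjusted p = 3.44e-09). Of the stem cell surface and signalling genes, 6 of 21 had a member, 8 in all, with 4 raised and 2 lowered (median 0.169); DESeq2 called 3 raised and 1 lowered. Vwf, the von Willebrand factor that marks platelet-biased stem cells, fell slightly at an intronic peak, from 30.5 ± 0.558 to 26.5 ± 1.79 CPM (-0.21, adjusted p = 0.00577). The peak 8118 bp from Procr, the endothelial protein C receptor of stem cells, rose from 24.8 ± 1.39 to 29.7 ± 3.84 CPM (0.28, adjusted p = 0.00617), a call lost under cyclic loess, under library size and without Idh2 R172K replicate 1.

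The Kit peak itself is a member, since its centre is at -14221 bp from the authors' nearest start while the RefSeq start of Kit, the stem cell factor receptor used to sort these cells, is inside. It held 65.5, 64.1, 61.5 and 68.1 CPM in WT and 74.4, 62.2, 74.4 and 82.0 in Idh2 R172K (log2 change of 0.18, SE 0.06, adjusted p = 0.0159; 0 under cyclic loess). The groups overlapped, and without Idh2 R172K replicate 4 the value was 0.13 (adjusted p = 0.113). Fgd5, another stem cell marker, held 12.8 ± 0.776 CPM in WT and 14.4 ± 1.09 in Idh2 R172K at its member (0.17, adjusted p = 0.083).

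Members at lineage genes are given next, list by list, with no test between lists. Of the myeloid list 7 of 23 genes had a member, 8 members in all, with 1 raised and 3 lowered (median -0.141), 4 of 8 called against 53.0% of all tested peaks. The raised one, 22229 bp from Ly86, a partner of the receptor RP105, went from 20.4, 22.1, 17.3 and 19.9 CPM to 28.9, 26.7, 34.5 and 29.2 (0.59, SE 0.08, adjusted p = 3.92e-07). The intronic peak of Csf2ra, the GM-CSF receptor alpha chain, fell from 143 ± 12.3 to 114 ± 6.83 CPM (-0.33, adjusted p = 0.000542), and the one 20149 bp from Cebpa, the master factor of granulocyte fate, from 22.2 ± 0.75 to 18.4 ± 2.29 (-0.29, adjusted p = 0.00128). Beside these, the Ctsg, Elane and S100a8 starts had lower means and the Lyz2 start one near WT in the same genotype, as given above, and their part in the result was not tested. Of the lymphoid list 5 of 31 genes had a member, 9 in all, with 2 raised and 5 lowered (median -0.336), against 25.1% raised and 27.9% lowered of all tested peaks. The peak 132235 bp from Bcl11a, a factor needed for lymphoid development, fell from 7.52 ± 0.389 to 2.98 ± 0.33 CPM (-1.34, adjusted p = 7.05e-12). At Foxp1 the members went both ways: the peak in intron 2 fell from 15.7 ± 1.9 to 6.43 ± 0.683 CPM (-1.28, adjusted p = 1.53e-12) and that in intron 5 rose from 14.1 ± 0.468 to 18.5 ± 0.435 (0.39, adjusted p = 2.26e-05).

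Of the megakaryocyte and erythroid list 5 of 22 genes had a member, 5 members in all, of which 3 rose and none fell by edgeR (median log2 fold change 0.345; none lowered at an unadjusted p under 0.05 or by DESeq2 either). The member in intron 1 of Zfpm1, the GATA1 cofactor FOG1, held 54.4, 49.3, 48.4 and 51.0 CPM in WT and 74.0, 62.3, 70.3 and 70.3 in Idh2 R172K (0.45, SE 0.06, adjusted p = 1.25e-07). Every Idh2 R172K library there stood above every WT library. The start of Gp9, a platelet glycoprotein, rose from 23.0 ± 2.76 to 31.7 ± 3.47 CPM (0.48, adjusted p = 1.02e-05). Exon 2 of Epor, the erythropoietin receptor, went from 20.2 ± 1.23 to 25.6 ± 1.83 (0.35, adjusted p = 3.25e-05). In bulk samples of this kind a shift in the make-up of the LSK cells and a change within each cell cannot be told apart.

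Of the immediate early and stress list 10 of 26 genes had a member, 14 in all, with 6 raised and 3 lowered in Idh2 R172K (median log2 fold change 0.032), 9 of 14 called against 58.7% of all members. The peak 2079 bp from Egr3, an early growth response factor, rose from 36.6 ± 2.53 to 47.9 ± 0.826 CPM (0.38, adjusted p = 6.38e-07), as did that at the start of Ier2, another early gene, from 107 ± 5.92 to 144 ± 10.1 (0.43, adjusted p = 0.001). The member 57307 bp from Klf6, a zinc finger factor, fell from 10.6 ± 1.48 to 6.77 ± 0.31 CPM (-0.67, adjusted p = 9.8e-07). Jun rose from 218 ± 24.9 to 256 ± 14.8 CPM (0.23, adjusted p = 0.00964) and Jund from 211 ± 20.6 to 252 ± 10.2 (0.25, adjusted p = 0.00257), but under cyclic loess the values turned to -0.05 for Jun and -0.02 for Jund. Of the cytokine signalling list 4 of 25 genes had a member, 5 members in all, with 3 raised and 2 lowered (median 0.164). At Jak1, a kinase of cytokine receptors, an intronic member fell from 8.33 ± 0.856 to 4.97 ± 0.629 CPM (-0.73, adjusted p = 2.17e-07) while another, 27516 bp away from the gene, rose from 31.8 ± 2.41 to 40.7 ± 1.34 (0.35, adjusted p = 1.27e-05).

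The list of DNA methylation genes and 2-oxoglutarate dioxygenases, the enzymes on which 2-hydroxyglutarate acts, had members at 10 of 31 genes, 13 in all, with 5 raised and 1 lowered in Idh2 R172K (median log2 fold change 0.143). Of these 13 members 9 held a start, and of all members with a start 46.1% were raised and 9.54% lowered. The lowered one lay 95511 bp from Jarid2, a partner of the Polycomb complex PRC2, and went from 6.9, 7.49, 6.04 and 7.01 CPM to 3.69, 2.92, 3.07 and 3.32 (-1.07, SE 0.12, adjusted p = 6.16e-10). A member over a start of Dnmt3a, a DNA methyltransferase mutated in blood cancers, at chr12:3890981-3893228 rose from 50.7 ± 1.69 to 66.6 ± 2.28 CPM (0.39, adjusted p = 4.97e-07). The other Dnmt3a member, at chr12:3806099-3808733, held 47.6 ± 1.28 CPM in WT and 50.7 ± 3.92 in Idh2 R172K (0.09, adjusted p = 0.21). Tet1, a TET enzyme, rose at its start from 26.2 ± 0.912 to 32.9 ± 0.971 CPM (0.33, adjusted p = 6.16e-05), with no overlap between the libraries. The stroma and endothelium list of 17 genes had no member.

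In Tet2 knockout 18 members were raised (0.981%) and 33 lowered (1.8%), 2.78% in all, against 3.10% of all tested peaks (0.785% raised and 2.32% lowered). The median log2 fold change over the members was 0.019. All 18 raised and 29 of the 33 lowered members had no overlap between the 4 knockout and 4 WT libraries. A further 48 members lay above and 29 below WT in this way without a call. In Idh1 R132H 58 and 29 uncalled members did so, so such separation is common without a call. It was not counted over all tested peaks. Of the 33 lowered members 27 were among the 943 with no start (2.86% of these) and 6 among the 891 with one (0.673%). In narrower non-promoter peaks 2.55% were lowered with no start inside and 1.55% with one. Of the 18 raised members 9 held no start (0.954%) and 9 held one (1.01%). By class, the 832 intron members had 12 raised (1.44%) and 19 lowered (2.28%), and the 437 intergenic members 1 (0.229%) and 9 (2.06%). Differences between these subsets were not tested. With the replicate number as a block the counts were 32 raised and 55 lowered, including all 18 and all 33. The lowered count fell to 19 without WT replicate 2, to 21 without Tet2 knockout replicate 3 and to 20 without replicate 4, and the raised count to 12 without Tet2 knockout replicate 3.

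The first raised member in Tet2 knockout was the one over the start of Fam181b, a little studied gene, at chr7:93079612-93081220. It held 27.7, 29.3, 27.4 and 29.5 CPM in WT and 39.9, 38.3, 37.4 and 35.7 in Tet2 knockout (log2 change of 0.41, SE 0.07, adjusted p = 0.000201). Idh2 R172K held 51.4, 46.7, 52.0 and 57.3 CPM at the same peak (0.87, SE 0.07, adjusted p = 5.82e-14), above every knockout library. The start of AI593442, the weakest member in WT, rose from 1.82, 2.82, 2.5 and 2.09 CPM to 3.41, 4.04, 3.79 and 4.02 in Tet2 knockout (0.74, SE 0.14, adjusted p = 0.00107). In Idh2 R172K it reached 7.66, 9.64, 8.65 and 7.6 CPM (1.86, SE 0.13, adjusted p = 2.13e-15), and Idh1 R132H and Idh2 R140Q stayed at 2.51 ± 0.426 and 2.69 ± 0.102.

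Other raised members were of similar size in Tet2 knockout. An intronic peak of Rbm19, a ribosome assembly factor, rose from 15.9 ± 0.664 to 21.0 ± 1.51 CPM (log2 change of 0.40, adjusted p = 0.000872), with 20.3 ± 1.46 in Idh2 R172K. The start of Marcksl1, an actin-regulating protein, rose from 64.8 ± 2.54 to 78.5 ± 7.04 CPM (0.28, adjusted p = 0.00833), with 97.1 ± 4.95 in Idh2 R172K. The exon of Fzd8, a Wnt receptor, rose from 27.3 ± 4.98 to 40.7 ± 2.12 CPM (0.57, adjusted p = 0.00902), and an intronic peak of the X-linked zinc finger gene Zfp711 from 7.26 ± 0.941 to 10.2 ± 0.458 (0.48, adjusted p = 0.00507). A member at Dzip1l, a ciliary protein, rose in Tet2 knockout from 3.08 ± 0.219 to 4.64 ± 0.973 CPM (0.60, adjusted p = 0.0101) and held 3.3 ± 0.517 in Idh2 R172K (0.13, adjusted p = 0.483). The Dzip1l call was lost without WT replicate 1 and without Tet2 knockout replicate 1.

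The first lowered member in Tet2 knockout lay at chr13:31312641-31314197, 244751 bp from Foxq1, a forkhead factor. It held 8.8, 8.68, 10.1 and 8.49 CPM in WT, 4.43, 4.97, 5.83 and 5.71 in Tet2 knockout (log2 change of -0.77, SE 0.11, adjusted p = 1.88e-05) and 1.42, 1.46, 1.59 and 1.8 in Idh2 R172K (-2.51, SE 0.14, adjusted p = 1.48e-18). The 3 groups did not overlap, with Tet2 knockout in the middle. The start-site member of Tnfsf4, which encodes OX40 ligand, a T cell costimulator, fell from 22.5, 15.6, 19.3 and 17.9 CPM to 12.2, 9.6, 13.2 and 12.6 in Tet2 knockout (-0.66, SE 0.11, adjusted p = 0.000213) and held 3.73 ± 0.418 in Idh2 R172K. A member 24471 bp from Nfkbia, the NF-kB inhibitor, fell from 12.1 ± 1.05 to 8.3 ± 0.876 CPM (-0.54, adjusted p = 0.00106), with 6.08 ± 0.332 in Idh2 R172K.

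A peak 6299 bp from Stox2 had the lowest level of the named members in Idh2 R172K. It held 7.47, 8.27, 8.34 and 9.89 CPM in WT, 4.39, 5.46, 4.29 and 5.0 in Tet2 knockout (log2 change of -0.83, SE 0.16, adjusted p = 0.00353) and 0.577, 0.779, 0.554 and 0.676 in Idh2 R172K (-3.77, SE 0.24, adjusted p = 6.45e-13). Idh1 R132H held 4.89, 5.75, 4.45 and 4.71 CPM and Idh2 R140Q 4.87, 5.71, 7.99 and 2.93, so the Idh1 R132H libraries lay below all WT libraries although neither genotype was called. In an intron of Cep85, a centrosome protein, the fall was larger in Tet2 knockout, from 13 ± 1.01 to 5.46 ± 0.931 CPM (-1.25, adjusted p = 0.00109), than in Idh2 R172K at 7.62 ± 1.27 (-0.74, adjusted p = 0.00349), but the difference between the mutants was not called (adjusted p = 0.0528). Smaller falls in Tet2 knockout were seen at Lrrn2 (-0.43), Akap12, a kinase anchoring protein (-0.59), Phldb1 (-0.36), Alg14 (-0.41) and Elovl6, a fatty acid elongase (-0.36). The comparisons of Idh2 R172K and Tet2 knockout share the 4 WT libraries, so similar values in both are not independent.

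Of the gene lists, 1 member was called in Tet2 knockout, the Nfkbia peak of the cytokine list. No member of the stem cell, myeloid, lymphoid, megakaryocyte and erythroid, immediate early or DNA methylation lists was called by edgeR or DESeq2. At an unadjusted p under 0.05 the stem cell transcription factors had 2 raised and 1 lowered, the myeloid list 1 lowered, the lymphoid list 1 raised, the megakaryocyte and erythroid list 2 raised the immediate early list 1 raised and the cytokine list 2 lowered, and the stem cell surface and DNA methylation lists had none. Over all members 14.5% passed that unadjusted threshold, and over all tested peaks 15.9%. The member near Hmga2 came nearest among the stem cell factors, with 9.57 ± 0.975 CPM in WT and 11.6 ± 1.28 in Tet2 knockout (log2 change of 0.27, adjusted p = 0.0925). Ier2 held 138, 166, 115 and 107 CPM in the 4 knockout libraries (0.30, adjusted p = 0.114), with replicates 1 and 2 above all WT libraries and replicates 3 and 4 within or near them.

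The direct contrast of Idh2 R172K with Tet2 knockout called 628 members higher and 322 lower in Idh2 R172K (together 51.8%, against 44.3% of all tested peaks, of which 20.1% higher and 24.1% lower). A peak 1585 bp from Hsp90aa1, the inducible HSP90 chaperone, held 9.22, 7.53, 9.46 and 12.3 CPM in WT, 15.0, 11.1, 15.0 and 18.4 in Idh2 R172K and 5.6, 6.87, 5.48 and 3.94 in Tet2 knockout. It was raised in Idh2 R172K (log2 change of 0.65, adjusted p = 0.00124), lowered in Tet2 knockout (-0.83, adjusted p = 0.00614), and the mutants differed by 1.47 (SE 0.16, adjusted p = 1.48e-07). At the transcript end near Hnrnpa2b1, an RNA-binding protein, the levels were 18.8 ± 2.13 CPM in WT, 28.2 ± 0.893 in Idh2 R172K and 14.0 ± 2.97 in Tet2 knockout, a difference of 1.02 between the mutants (adjusted p = 1.28e-07). The Hnrnpa2b1 call in Tet2 knockout (-0.44, adjusted p = 0.0415) was lost in 7 of 15 alternative settings. The intronic peak of Rab11fip1, a Rab11 effector of membrane recycling, had the reverse order, with 7.12 ± 0.259 CPM in WT, 6.1 ± 0.856 in Idh2 R172K and 9.54 ± 0.387 in Tet2 knockout (difference -0.68, adjusted p = 1.74e-07). Its fall in Idh2 R172K (-0.26, adjusted p = 0.0272) was lost without WT replicate 4 and without Idh2 R172K replicates 1 or 3. No other member was called in opposite directions in these genotypes, while 15 were raised in both and 27 lowered in both.

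**Figure D5:**
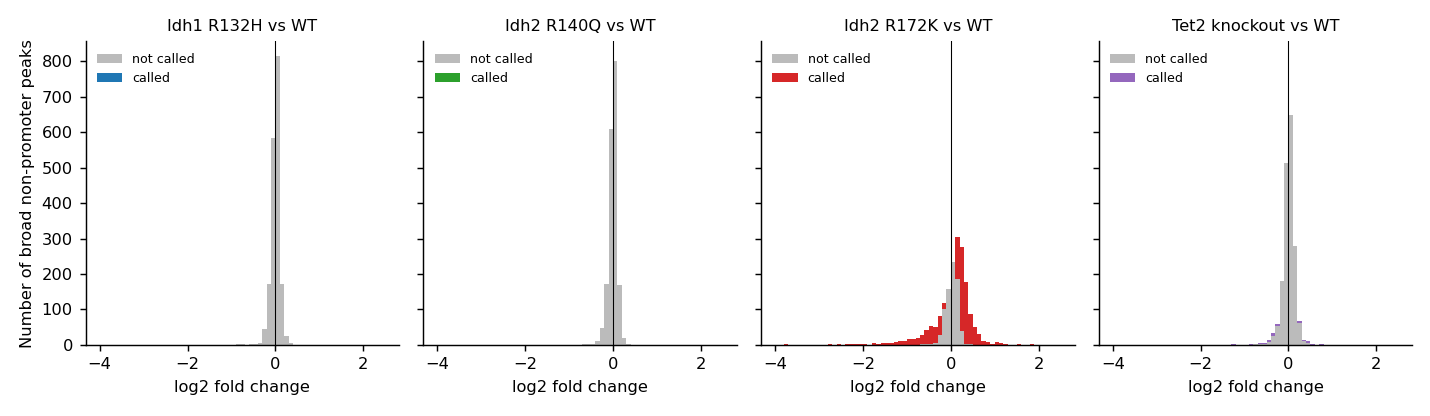
Histograms of the log2 fold change against WT of the 1834 members in the 4 mutant genotypes, with called members in colour and the others in grey. Fold changes are spread widely with a long lowered tail in Idh2 R172K, and in the other 3 genotypes they are gathered around 0, with 1 called member in Idh1 R132H, none in Idh2 R140Q and 51 in Tet2 knockout.

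In Idh1 R132H 1 member was called, lowered, against 0.0274% of all tested peaks (0.00646% raised and 0.0210% lowered). It lay between genes at chr1:66895055-66896916, 28310 bp from Myl1, a muscle myosin light chain, and held 18.2, 18.6, 16.3 and 18.3 CPM in WT and 12.4, 13.3, 11.9 and 12.1 in Idh1 R132H (log2 change of -0.53, SE 0.08, adjusted p = 0.0013). Idh1, the gene altered in this genotype, is also on chromosome 1. An effect of DNA linked to the altered allele was not tested. Idh2 R140Q (18.1 ± 1.15 CPM), Idh2 R172K (19.3 ± 1.12) and Tet2 knockout (19.5 ± 2.99) were near WT, and the same peak was the 1 member that differed between Idh1 R132H and Idh2 R140Q (-0.55, adjusted p = 0.000262, against 0.0412% of all tested peaks, 0.0145% higher and 0.0266% lower). At an unadjusted p under 0.05 the Idh1 R132H members had 87 raised and 42 lowered (7.03%, against 5.07% of all tested peaks), and DESeq2 called 2 lowered and none raised. In Idh2 R140Q no member was called by edgeR or by DESeq2, against 0.0153% of all tested peaks by edgeR (0.00807% raised and 0.00726% lowered). There 32 members were raised and 41 lowered at an unadjusted p under 0.05 (3.98%, against 5.5%). Changes of the size seen in Idh2 R172K at Sema4b, Fstl4 or Osm were absent from these 2 genotypes, as the levels above show. Between the Idh2 mutants the direct contrast called 643 members higher and 327 lower in Idh2 R172K (together 52.9%, against 47.0% of all tested peaks, 21.5% higher and 25.5% lower).

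Ordered by mean level, Idh2 R172K was the highest of the 5 genotypes at 1014 members (55.3%) and the lowest at 507 (27.6%), while over all peaks it was highest at 40.1% and lowest at 40.3%. WT was the lowest at 506 members. Idh1 R132H was highest at 265 and lowest at 300, and Idh2 R140Q at 117 and 197. Tet2 knockout was highest at 237 and lowest at 324.

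Most members stood alone. Linked where the gap was at most 12.5 kb, as is usual for stitching enhancers into super-enhancers, 84 members formed 40 stretches and the rest had no other within reach. The longest chain held 4 members over 29736 bp of chromosome 11 (chr11:87442732-87472467), within Tex14, a germ cell bridge protein, each at an annotated transcript end with a start inside. From one end to the other they held 109 ± 8.05, 103 ± 6.26, 83.0 ± 6.11 and 59.4 ± 5.36 CPM in WT. None was called in Idh2 R172K (log2 changes of 0.11 to 0.18, lowest adjusted p = 0.0514, at the second peak, which was called in 5 of 15 alternative settings) or in Tet2 knockout, where replicates 1 and 2 lay above replicates 3 and 4 at all 4 peaks, for example 121 and 133 against 91.1 and 87.1 CPM at the first. A stretch of 3 members on chromosome 10 (chr10:127164772-127190292) began at B4galnt1, a ganglioside synthase, where the member fell in Idh2 R172K from 53.6 ± 2.38 to 46.4 ± 2.26 CPM (-0.21, adjusted p = 0.00171). Its neighbours at Slc26a10 (0.11, adjusted p = 0.283) and Arhgef25 (0.04, adjusted p = 0.732) were not called. Of the 44 neighbouring pairs in stretches, 4 were called in the same direction in Idh2 R172K, 5 in opposite directions, 25 in 1 peak only and 10 in neither.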

How the data were processed

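ATAC-seq libraries of LSK cells were compared as 5 genotypes of 4 libraries each, which the labels call separate pools of 2 mice. The deposited table holds the authors' counts per peak, unnormalized, over 1 peak set shared by all libraries, and the labels do not say whether reads or fragments were counted. The submitters' processing notes name Trim Galore, BWA, Picard, SAMtools, MACS2, featureCounts and the build mm10, without versions or settings. Widths come from the count table, whose starts lie 1 bp below those of the annotation table. Columns written IDH1_140Q were taken as Idh2 R140Q, the only genotype with that substitution.

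Counts were tested in R 4.3.3 with edgeR 4.0.16 (TMM scaling, filterByExpr, which removed 1435 peaks, and the robust quasi-likelihood test), with 1 mean per genotype over all 20 libraries and Benjamini-Hochberg adjustment over all tested peaks. Genes were named from RefSeq GRCm38.p6 (21900 protein-coding genes). The members and gene lists were chosen with earlier results of these data known. Peaks are named by rule: the 10 strongest in WT and the 5 widest; the first 10 each way by p in Idh2 R172K and in Tet2 knockout with no overlap with WT, 1 per gene and without predicted genes; all called in Idh1 R132H or Idh2 R140Q; the first 5 each way between Idh2 R172K and Tet2 knockout; members called in opposite directions; up to 4 per gene list; and the 3 fullest stretches. Alternatives were other scalings, DESeq2 1.42.0, no filter, a stricter width, a replicate block, an Xist term and leaving out each library.

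Same-numbered libraries deviated together in Idh1 R132H and WT (correlations of deviations 0.127 to 0.299 in the 4 pairs) and in Idh2 R140Q and WT (0.15 to 0.333). The main fit used no pairing by number. A pairing would rest on these correlations and on the Xist sets, since the labels tie a number to no shared litter or day. In WT and each Idh genotype the Xist-high set was replicates 2 and 4, as given above.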

Additional observations from a re-analysis of the deposited data

Results flagged for a closer look

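Among the named peaks, 455 groups of 4 libraries were examined for a library far from the other 3, and 18 (3.96%) had one, where chance alone gives about 1 in 20. The gap to the nearest library as a share of the group's range, past Dixon's limit for 4 values in each case, was 0.904 for Idh1 R132H replicate 1 at Mto1, 0.857 for WT replicate 4 and 0.894 for Idh2 R140Q replicate 4 at Pcdh7, 0.849 for WT replicate 3 at Sbno2 and 0.949 for WT replicate 3 at Rcn3. It was 0.867 for WT replicate 2 at Rbm19, 0.914 for Idh2 R172K replicate 4 at Zfp711, 0.889 for Idh2 R140Q replicate 2 at Marcksl1, 0.867 for Idh1 R132H replicate 3 at Cep85, 0.937 for Idh1 R132H replicate 4 at Phldb1 and 0.854 for WT replicate 3 at Myl1. It was 0.912 for Idh2 R172K replicate 1 at Man1c1, 0.857 for Tet2 knockout replicate 2 at Procr, 0.834 for WT replicate 1 at Bcl11a, 0.902 for WT replicate 1 at Epor, 0.843 for Idh2 R140Q replicate 3 at Egr3, 0.841 for WT replicate 4 at Tex14 and 0.831 for Tet2 knockout replicate 2 at Mreg.

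At 3 of the 1834 members Idh2 R172K and Tet2 knockout were called in opposite directions against WT, and the direct contrast of the mutants was called too. Of the 123908 tested peaks 49 were raised in Idh2 R172K and lowered in Tet2 knockout, and 80 the reverse. Calls in the same direction were more frequent, with 15 members raised in both and 27 lowered in both (636 and 2575 of all tested peaks). The log2 difference, Idh2 R172K minus Tet2 knockout, was 1.47 at Hsp90aa1, 1.02 at Hnrnpa2b1 and -0.68 at Rab11fip1.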

How the results depend on the processing

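The share of members raised in Idh2 R172K was 39.8% and fell to 24.8% under cyclic loess; Jun turned to -0.05 (adjusted p = 0.512) and Jund to -0.02 (adjusted p = 0.782) there. At a width of 2000 bp or more the lowered share was 12.1% in Idh2 R172K, 2.72% in Tet2 knockout and 0.0% in Idh1 R132H, the raised share was 0.604% in Tet2 knockout, and 0.0% differed between Idh1 R132H and Idh2 R140Q. The lowered share in Idh1 R132H was 0.109% with DESeq2 and with a term for the Xist set.

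With the replicate number as a block, 42.1% of members were raised and 20.0% lowered in Idh2 R172K, 1.74% and 3.0% in Tet2 knockout, and 0.109% lowered in Idh1 R132H. Same-numbered libraries of Idh2 R172K and WT had correlations of deviations of -0.065 to 0.175, with 3 of 4 pairs over 0.1. Those of Tet2 knockout and WT had 0.023 to 0.106, with 1 of 4 pairs over 0.1. Over all genotypes 16 of 20 libraries were closest to their own number. The number thus carries some shared structure that the main fit leaves out, and its source was not tested.

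Leaving out 1 library at a time gave 33.3% to 39.0% raised and 17.3% to 19.2% lowered in Idh2 R172K. In Tet2 knockout it gave 0.654% to 1.15% raised and 1.04% to 2.07% lowered, with 1.04% without WT replicate 2, 1.15% without Tet2 knockout replicate 3 and 1.09% without replicate 4. Idh1 R132H kept 0.0545% lowered and 0.0% raised, and Idh2 R140Q had 0.0% to 0.0545% lowered, the latter without its replicate 3, and 0.0% raised. Between Idh2 R172K and Idh2 R140Q 45.1% to 51.0% were called, between Idh2 R172K and Tet2 knockout 44.7% to 49.0%, and between Idh1 R132H and Idh2 R140Q 0.0545% to 0.436%, the latter without Idh2 R140Q replicate 2.

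Of 2355 tests of named peaks under alternatives, 2313 kept direction and side of the threshold, 21 lost the call, 19 gained one and 2 reversed. What size of change the depth could show was not tested; of the members under 5 CPM in WT, 58.4% were called in Idh2 R172K.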

Other observations

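In Tet2 knockout the libraries differed with peak strength along the Xist split, a pattern looked for after the data were seen. Among the 275 members at 50 CPM or more in WT, both Xist-high knockout libraries lay below both Xist-low ones at 198 (72.0%), with a median log2 difference of -0.128. The same held for 3 (1.09%) in WT and 57 (20.7%) in Idh2 R172K, with 8 for Idh1 R132H and 22 for Idh2 R140Q. Among the 486 members under 10 CPM both Xist-high knockout libraries lay above both others at 214 (44.0%), against 54 (11.1%) in WT, 95 (19.5%) for Idh1 R132H, 49 (10.1%) for Idh2 R140Q and 63 (13%) for Idh2 R172K. Impact shows it, with 180 and 173 CPM in the Xist-low and 127 and 125 CPM in the Xist-high knockout libraries, as do the 4 Tex14 peaks given above. The cause was not tested, and in Tet2 knockout the Xist split is also the split between replicates 1 and 2 and replicates 3 and 4. With the Xist set as a term, 1.2% of members were raised and 2.18% lowered in Tet2 knockout.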
